A study of Mus musculus with 180 samples.

Results

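The 41 genes described here encode kinases that clinical kinase inhibitors (CKIs) are designed or were used to block. They were found by their gene symbols, 1 row each, among the 45070 genes of the expression table. Of the 41, 34 had a mean normalized read count of at least 10 over all samples and entered the tests together with 12714 genes in all. The 7 that did not are Egfr, Erbb2, Erbb4, Flt4, Pdgfra, Flt3 and Alk, and they are described by their levels only.

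PolyA RNA was measured in wild-type bone marrow-derived macrophages (BMDM), primary cells grown from mouse marrow. A pre-incubation of 1 h with a CKI (58 in all) or with DMSO, the solvent, preceded 2 h of LPS at 10 ng/ml, so the DMSO samples had also received LPS. Each CKI had 3 samples and DMSO had 6, in sets labelled DMSOs1 and DMSOs2 with 3 samples each, which were used as 1 reference. Each CKI was given at the concentration that displaced a fixed share of its intended target from an affinity matrix, so concentrations differed between CKIs that share a target and their values are set side by side without a test between them. The labels do not say whether the samples of a group came from separate animals or cultures, so every p-value measures the spread between these samples only, nor do they say which CKIs were run with which DMSO set. A kinase's own CKIs are those whose supplier names it as a target (designated) or that the study used against it (intended); 106 such pairs were annotated, Erbb3 and Pdgfra had none, and 90 pairs could be tested.

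As background, a kinase inhibitor acts on the protein and not directly on its mRNA, and a cell without the mRNA makes no target. In macrophages, LPS signals through Toll-like receptor 4 to the IKK kinases, the p38 and ERK cascades and PI3K, and the interferon that follows signals through the Janus kinases. Transcription of many growth factor receptor genes is a feature of other tissues, and the mitotic kinase genes are transcribed mainly in dividing cells.

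The libraries summed to between 9477340 and 12273349 normalized reads. The macrophage genes Csf1r (24416 to 25418), Adgre1 (5747 to 10541) and Cd68 (3124 to 11311) were high in all 6 DMSO samples. The T cell genes Cd3d, Cd3e and Cd3g, the B cell gene Cd79a and the epithelial genes Epcam and Krt8 did not pass 1. Other genes of these lists did, among them Cd4 (2 to 19) and Cd79b (0 to 20). The T cell, B cell and epithelial lists summed to 2 to 22, 1 to 21 and 0 to 3. The neutrophil list summed to 113 to 420, with Ngp at 74 to 370. Between DMSOs1 and DMSOs2 0 of 12714 genes (0%) passed limma's moderated test with Benjamini-Hochberg adjustment (threshold 0.05, used throughout), with 310 genes at an unadjusted p under 0.05, 4 of them target kinases. Libraries differed in the balance of long and short transcripts, given here as a length index, the median log2 deviation of the 25% of genes with the longest cDNA minus that of the 25% with the shortest. It lay between 0.11 and 0.45 in 5 DMSO samples and at -0.40 in DMSOs1 replicate 3. The kinase cDNAs are long, with a median of 4864 bases for the 34 tested against 2807 bases for all genes tested. Part of the kinase calls below ended with this index as a covariate, and part with the mitochondrial share of reads and the replicate number in the fit. That share was fitted only together with the replicate number, which alone raised the kinase calls from 101 to 184. A call that stays in that fit relies partly on matched replicate numbers.

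Of the 41 kinases, 31 reached a normalized read count of at least 10 in every one of the 6 DMSO samples (34 at a minimum of 5 and 27 at a minimum of 50). All 28 kinases outside the receptor class did so. Of the 13 receptor tyrosine kinases only Erbb3, Kdr and Flt1 did, and all 13 were below the median gene tested per kb of cDNA (59.3 normalized reads per kb). The highest levels per kb belonged to Map2k1, the kinase directly upstream of ERK, at 1245 ± 380 (SD, n = 6), and Lyn, a SRC-family kinase of myeloid cells, at 1197 ± 209 (SD, n = 6). They exceeded 93.8% and 93.6% of the genes tested.

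**Figure D1:**
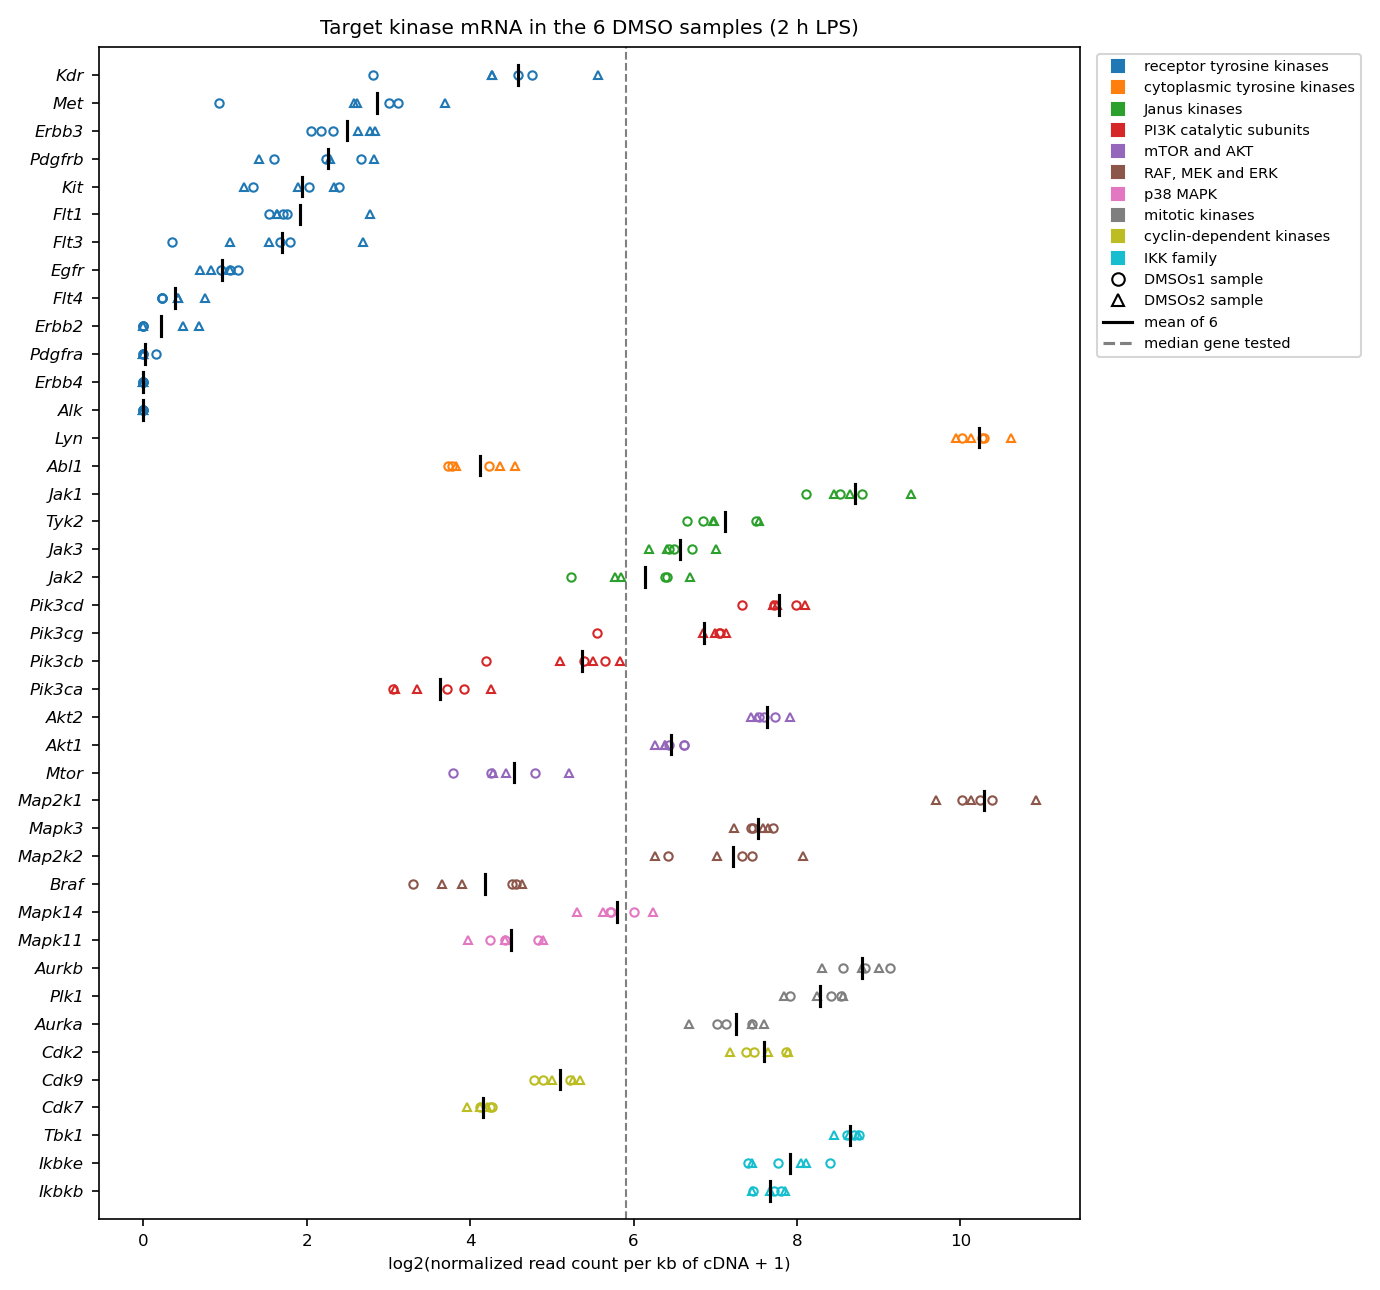
Levels of the 41 target kinases in the 6 DMSO samples, as log2 of the normalized read count per kb of cDNA plus 1, grouped by class; circles are DMSOs1, triangles DMSOs2, the black bar is the mean of 6 and the dashed line the median gene tested. The 13 receptor tyrosine kinases all have means left of the dashed line, from 0 for Alk and Erbb4 to 23.0 reads per kb for Kdr, whereas Map2k1 and Lyn lie farthest right.

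The ERBB family, receptors for epidermal growth factor and neuregulins, was almost silent. Egfr had 8, 7, 6, 5, 7 and 4 normalized reads in the 6 DMSO samples and between 1 and 19 over all 180 samples. Erbb2 was at 0 in 124 of 180 samples and never passed 4, and Erbb4 was at 0 in 176 and never passed 1. Erbb3, which has little catalytic activity of its own, was the one family member in the tests, with 19 to 37 reads in DMSO. Alk, a receptor of the developing nervous system, had 0 reads in all 180 samples. Among the receptors for vascular growth factors, Kdr (VEGFR2) had 177, 200 and 46 reads in DMSOs1 and 140, 356 and 140 in DMSOs2. Flt1 had 21 to 64 and Flt4 1 to 4. Of the 5 endothelial marker genes only Vwf reached 10 in every DMSO sample (31 to 109), Cdh5 had 0 to 3, and Tek and Emcn were at 0. Kit, the stem cell factor receptor, had 7 to 22 reads while the 4 mast cell genes summed to at most 1. Pdgfrb had 9 to 33 reads, and Pdgfra had 1 read in 1 DMSO sample. Of the 5 fibroblast genes Col1a1 had 11 to 98, Col1a2 7 to 43, Col3a1 0 to 9 and Dcn 0 to 2, and Lum was at 0. Flt3 had 1 to 20 and Met 6 to 79, the lowest of these in DMSOs1 replicates 1 and 3, respectively. Fewer cells with a receptor and less of its RNA in every cell cannot be told apart in bulk RNA.

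Within each signaling family 1 member led. Jak1, which serves both interferon receptor types, had 419 ± 137 reads per kb (SD, n = 6), 3.03 times the next, Tyk2 at 138 ± 35.4, and the ranges of the samples did not overlap. Jak3, the partner of the common gamma chain, at 93.7 ± 19.7 and Jak2 at 69.3 ± 24.2 overlapped in range, as did Tyk2 and Jak3. Among the catalytic subunits of PI3K the leukocyte isoform gene Pik3cd led with 219 ± 39.5 and did not overlap with the other leukocyte isoform gene, Pik3cg, at 115 ± 34.8. The ubiquitous isoform genes Pik3cb (40.2 ± 13.7) and Pik3ca (11.4 ± 4.28) followed in that order in 6 of 6 samples. Akt2 stood at 197 ± 25.1 per kb, above Akt1 at 86.8 ± 8.70 and Mtor at 22.1 ± 8.14, all without overlap.

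In the ERK cascade Map2k1 exceeded the next gene 6.83 times, and Mapk3 (ERK1) at 182 ± 21.3 overlapped with Map2k2 at 148 ± 70.5. Braf was lowest at 17.1 ± 6.41. Of the p38 genes Mapk14 (p38 alpha, 54.5 ± 12.4) lay above Mapk11 (p38 beta, 21.6 ± 5.41) without overlap. Among the IKK-related kinases, Tbk1 (402 ± 30.8) lay above Ikbke (239 ± 65.4) and Ikbkb (202 ± 23.3), and the last pair overlapped. The mitotic genes were not low: Aurkb, the catalytic subunit of the chromosomal passenger complex, had 444 ± 89.2, Plk1, a regulator of mitotic entry and exit, 310 ± 64.6 and Aurka, the spindle pole kinase, 151 ± 34.0. Cdk2 (192 ± 36.8) lay above the transcriptional kinase genes Cdk9 (33.2 ± 5.21) and Cdk7 (16.9 ± 1.34), and Abl1 was at 16.3 ± 4.22. The cDNA length given for Cdk7, 7598 bases, exceeds its 3706 exonic bases in GENCODE, so its level per kb may be understated. In mean reads Cdk7 (128) was above Cdk9 (112.5).

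Set against the CKIs, 47 of 58 had at least 1 designated target with 10 or more reads in every DMSO sample and 11 had none. The 11 were Afatinib, Lapatinib, Mubritinib, AC480, Neratinib and Poziotinib, whose designated targets are Egfr, Erbb2 or Erbb4, the MET inhibitors AMG208, Capmatinib, MK2461 and SGX523, which are among them through 1 DMSO sample with 6 reads of Met beside 33 to 79 in the other 5, and X396, designated against Alk. Afatinib and Lapatinib were nevertheless among the CKIs with most genes called, at 2780 and 2964 of 12714. The other 9 had between 0 genes (AC480, AMG208, Neratinib, Poziotinib and SGX523) and 234 genes (Mubritinib) called, and between 308 and 2499 genes at an unadjusted p under 0.05. Several of these CKIs were used here against another kinase, such as Afatinib against MAPK9 and Mubritinib against MINK1, whose genes did reach 10 reads in every DMSO sample, but the intended target of Lapatinib was Egfr.

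Calls with a kinase's own inhibitor fell on 4 genes. For Map2k1 it was a single call that ended in 15 of 26 alternatives (below). Pik3ca and Pik3cb were higher, and Plk1 and Map2k1 were lower. The 200 bases before their RefSeq start sites (build GRCm38, the mm10 assembly of the files) are shown 5′ to 3′ on the gene's strand so that the genes of each pair can be compared. Capitals mark 4 strings found on either strand: CCAAT, the box that NF-Y reads and that is common in cell cycle promoters; CCGGAAGT, an ETS-type string; and TTTGAA and TTTAAA, forms of the cell cycle genes homology region. No marked strings overlapped.
Pik3ca, chr3:32396865-32397064, plus strand: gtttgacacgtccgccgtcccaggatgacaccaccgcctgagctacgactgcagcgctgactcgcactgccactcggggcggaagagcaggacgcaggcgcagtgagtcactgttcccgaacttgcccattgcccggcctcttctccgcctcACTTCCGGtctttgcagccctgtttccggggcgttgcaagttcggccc
Pik3cb, chr9:99140212-99140411, minus strand: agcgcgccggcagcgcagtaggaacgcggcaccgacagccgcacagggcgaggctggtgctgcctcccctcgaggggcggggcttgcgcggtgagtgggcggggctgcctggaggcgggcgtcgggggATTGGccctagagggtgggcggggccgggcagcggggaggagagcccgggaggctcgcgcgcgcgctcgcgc
Plk1, chr7:122159235-122159434, plus strand: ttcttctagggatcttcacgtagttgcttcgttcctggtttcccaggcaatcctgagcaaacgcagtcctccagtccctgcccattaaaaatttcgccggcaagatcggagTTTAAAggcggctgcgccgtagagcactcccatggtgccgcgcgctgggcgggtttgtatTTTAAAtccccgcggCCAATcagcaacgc
Map2k1, chr9:64253606-64253805, minus strand: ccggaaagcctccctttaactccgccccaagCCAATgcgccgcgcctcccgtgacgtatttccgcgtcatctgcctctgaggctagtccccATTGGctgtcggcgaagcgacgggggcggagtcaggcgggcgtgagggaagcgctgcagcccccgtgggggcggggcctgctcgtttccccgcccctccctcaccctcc

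The Plk1 stretch held 1 CCAAT and 2 TTTAAA, Map2k1 2 CCAAT, Pik3cb 1 CCAAT and Pik3ca 1 CCGGAAGT. In the 250 bases before the start of all 32851 listed promoters, CCAAT stood in 33.8%, TTTAAA in 12.1%, TTTGAA in 16.0% and CCGGAAGT in 2.88%. GTAAACA, a string read by forkhead factors, stood in 3.17% of promoters and in the 250 bases of none of these 4, but in those of Akt1 and Pik3cg. Promoters were listed for 35 of the 41 kinases. Pik3ca and Pik3cb, which rose with the same pair of CKIs below, shared none of the strings.

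Of the 90 own pairs tested, 8 passed the threshold (limma, adjusted p under 0.05), 6 higher and 2 lower, or 8.89% of pairs. In the same 90 comparisons 6.13% of all genes were called on average, and over all 58 CKIs 4.18% were. The 8 calls fell on 4 kinases. The median log2 fold change of the 90 pairs was -0.01, with 44 above and 46 below 0, and 26 had an unadjusted p under 0.05. The 33 kinases with an own CKI were also compared between their own and all other CKIs, without DMSO. Of these, 5 passed the threshold (3 higher, 2 lower) and 8 had an unadjusted p under 0.05. The SEs and p-values of this contrast come from the spread between samples within groups, not from the spread between CKIs. The contrast therefore describes these CKIs and does not test own CKIs as a class. All 8 called pairs rest on designated targets and 1 of them, Map2k1 with Pimasertib, also on the intended target.

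Pik3ca encodes p110 alpha, the class I PI3K isoform best known for growth factor signaling, and lies at chr3:32397065-32466107. It had 99, 85 and 51 normalized reads in DMSOs1 and 127, 52 and 64 in DMSOs2. With BGT226 it had 256, 228 and 138 reads, all above the DMSO samples (log2 fold change 1.40 ± 0.29 SE, adjusted p = 3.41e-05). With PF04691502 the values were 274, 134 and 211 (1.38 ± 0.29, adjusted p = 0.000268), and with Omipalisib 201, 201 and 177 (1.34 ± 0.29, adjusted p = 0.000112). These were the 3 highest of the 58 CKIs. Apitolisib gave 167, 134 and 113, which overlapped with DMSO (0.85 ± 0.29, adjusted p = 0.0339), and this call ended without any 1 of the 3 Apitolisib samples (adjusted p from 0.0971 to 0.143), without DMSOs1 replicate 3 (0.0724), DMSOs2 replicate 2 (0.110) or DMSOs2 replicate 3 (0.0538), with the length index as a covariate (0.0985), and with mitochondrial share and replicate number in the fit (0.307). In all the call with Apitolisib ended in 17 of 26 alternatives, among them either DMSO set alone as reference and median-of-ratios scaling. The other 3 calls held under every alternative tried, the highest adjusted p being 0.0495.

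Pik3ca was also higher with CKIs that are not directed at it. It was above DMSO on average with 57 of 58 CKIs, with a median log2 fold change of 0.49, and it also rose with Pimasertib (207, 136 and 163 reads), Tofacitinib, Lenvatinib, Lapatinib and AZD2014. Mitochondrial transcripts made up 3.66% of reads with Pimasertib on average, the highest of the 58 CKIs, 2.64% with Tofacitinib, 2.77% with Lenvatinib and 2.76% with Lapatinib, against 1.15% in DMSO. With that share and the replicate number in the fit these 4 calls ended (adjusted p = 0.253, 0.0775, 0.189 and 0.112, respectively), while that with AZD2014 did not (0.000241). The share was not fitted without the replicate number, and same-numbered samples of AZD2014 and DMSO correlated as low as -0.0877. With the length index as a covariate the calls with Lapatinib (0.0668) and AZD2014 (0.0833) ended. All 58 comparisons share the same 6 DMSO samples. Set against the 54 other CKIs without DMSO, its 4 own CKIs were still higher, by 0.74 ± 0.12 on the log2 scale (means of 7.50 and 6.76, adjusted p = 1.72e-07), in a contrast that called 40.6% of all genes.

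Pik3cb, which encodes p110 beta, lies at chr9:99038402-99140211. It had 199, 239 and 84 reads in DMSOs1 and 216, 273 and 161 in DMSOs2. It rose with BGT226 to 383, 512 and 331, above all DMSO samples (1.13 ± 0.22, adjusted p = 1.10e-05), and with Omipalisib to 328, 346 and 272, the last within the DMSO range (0.77 ± 0.22, adjusted p = 0.00428; 0.0797 without Omipalisib replicate 1). The call with Omipalisib also ended against DMSOs2 alone, with only the groups compared and with a minimum log2 change of 1. With its other designated inhibitors Pik3cb did not pass the threshold: 264, 177 and 274 reads with PF04691502 (0.35 ± 0.22), 217, 181 and 180 with Apitolisib (0.07 ± 0.22) and 181, 167 and 151 with AZD8186 (-0.14 ± 0.22). With the length index as a covariate Pik3cb passed with PF04691502 (0.54, adjusted p = 0.0422). It did not with median-of-ratios scaling (0.419) or with mitochondrial share and replicate number (0.288). Over all 5 it was higher than with the 53 other CKIs by 0.34 ± 0.08 (adjusted p = 0.00048; 30.8% of genes called), which missed the threshold without the first replicate of every group (adjusted p = 0.0544).

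The leukocyte isoform genes did not pass the threshold with any own inhibitor before any block, covariate or rescaling. Of the 5 own pairs of Pik3cd, log2 fold changes ran from -0.25 with TG100115 to -0.02 with AZD8186, and of the 5 of Pik3cg from -0.48 with Omipalisib (589, 664 and 408 reads against 321 to 973 in DMSO) to 0.47 with Apitolisib. The lowest adjusted p was 0.0571 for Pik3cg with Omipalisib and 0.0953 for Pik3cd with Omipalisib. With replicate number as a blocking term Pik3cg passed with Omipalisib (0.0349) and Apitolisib (0.0473), in opposite directions. With the length index as a covariate both pairs passed (0.00512 and 0.0255), as did Pik3cd with Omipalisib (0.00693). Median-of-ratios scaling let Pik3cg (0.01075) and Pik3cd (0.0224) pass with Omipalisib, but not Pik3cg with Apitolisib (0.161). With mitochondrial share and replicate number Pik3cg passed with Omipalisib (0.0280), and Pik3cd did not (0.126). Mtor, the kinase shared by both mTOR complexes, had 115, 126 and 164 reads with AZD2014, 132, 105 and 171 with PF04691502, 152, 211 and 98 with Apitolisib and 180, 200 and 256 with BGT226, against 110 to 309 in DMSO. None of these passed the threshold. With mitochondrial share and replicate number in the fit Mtor passed with AZD2014 (-0.43, adjusted p = 0.0394). With replicate number alone Mtor missed the threshold (adjusted p = 0.0546). With the length index as a covariate it did not (-0.01, adjusted p = 0.983). As a group these 4 CKIs had lower Mtor than the 54 others, by 0.27 ± 0.09 (adjusted p = 0.0154; 31.9% of genes called), a call that ended without replicate 2 (0.166) or replicate 3 (0.0849) of every group and that joins 3 CKIs below DMSO with 1 above it.

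**Figure D2:**
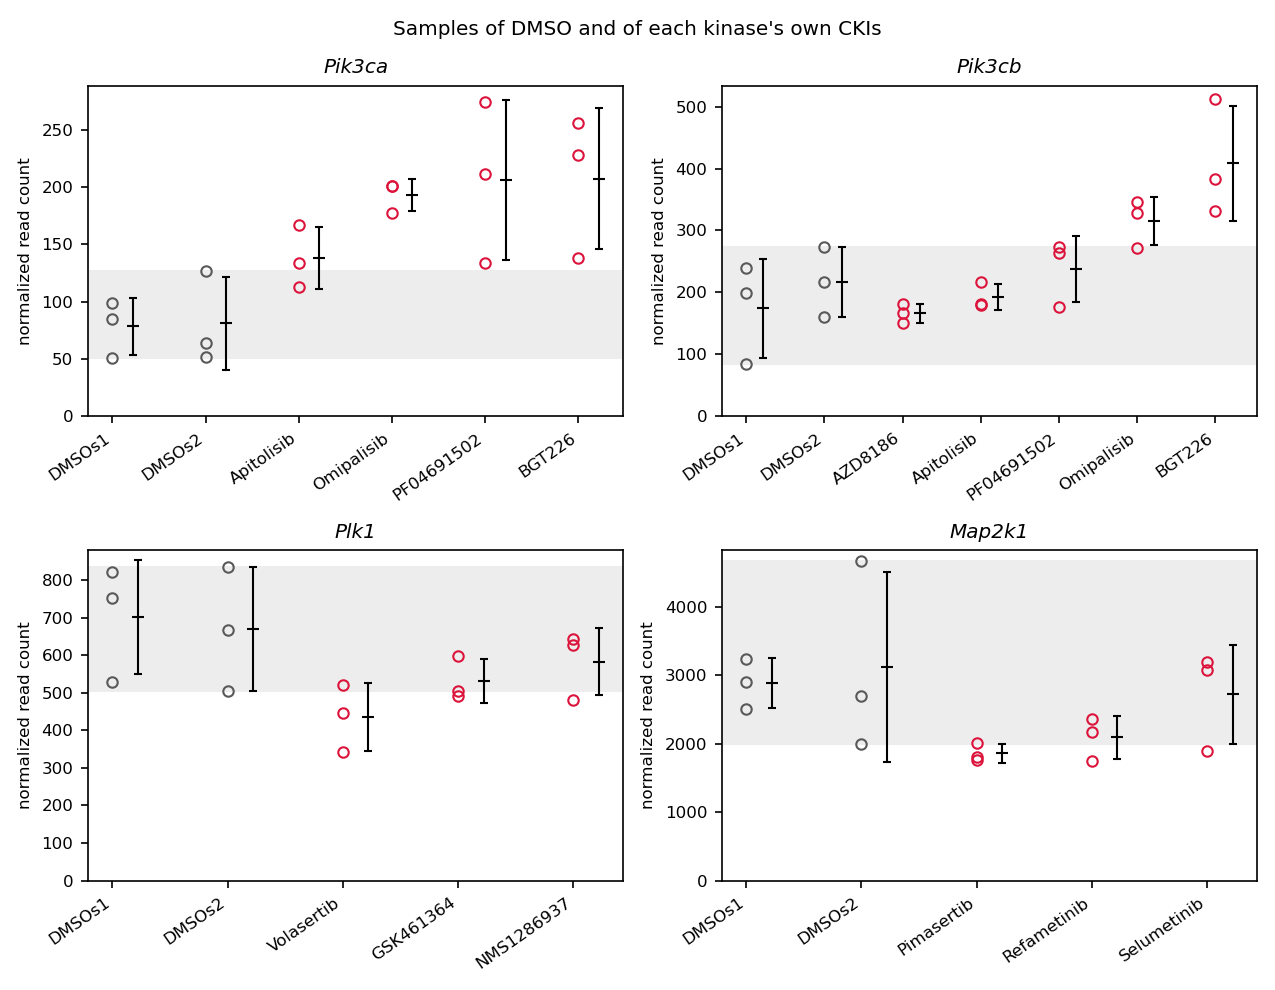
Normalized read counts of Pik3ca, Pik3cb, Plk1 and Map2k1 in each sample of DMSO (grey circles) and of the gene's own CKIs (red circles), with the mean ± SD of 3 samples beside them and the range of the 6 DMSO samples shaded. All samples of BGT226, PF04691502 and Omipalisib lie above the shading for Pik3ca, those of BGT226 alone for Pik3cb, while Volasertib has 1 Plk1 sample and Pimasertib 1 Map2k1 sample inside it.

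Plk1 was lower with its inhibitors. It lies at chr7:122159435-122169884 and had 530, 753 and 821 reads in DMSOs1 and 506, 667 and 836 in DMSOs2. Volasertib gave 342, 522 and 446 reads, the lowest mean of the 58 CKIs (-0.64 ± 0.16, adjusted p = 0.0164, where Volasertib called 1.74% of all genes). The second of these samples overlapped with DMSO, and the call ended without Volasertib replicate 1 (adjusted p = 0.0713) or 3 (0.181) or DMSOs2 replicate 3 (0.0537). In all the call ended in 9 of 26 alternatives. These include either DMSO set alone as reference, only the groups compared, and leaving out replicate 2 or 3 of every group. GSK461364 gave 491, 597 and 506 (-0.34 ± 0.16, adjusted p = 0.305) and NMS1286937 482, 642 and 626 (-0.22 ± 0.16, adjusted p = 0.884), at ranks 3 and 5 from the lowest of 58. Of the Plk1 exon bases 7.09% also lie in a gene on the opposite strand, Gm44985, which counts without strand cannot separate. The 3 PLK1 inhibitors together were below the 55 other CKIs by 0.41 ± 0.08 (means of 8.99 and 9.40, adjusted p = 0.000556). That contrast called only 0.928% of all genes, and the call held without each replicate in turn and under every other alternative except a minimum log2 change of 1. Of the 14 tested genes that work with the mitotic kinases, 4 fell with Volasertib and none rose, where 1.34% of all genes fell: Cdc20, the activator of the anaphase-promoting complex (456, 722 and 544 reads against 797 to 1343; -0.94 ± 0.19), Incenp, the scaffold of Aurora B (-0.92 ± 0.24), Bub1b, a spindle checkpoint kinase (-0.46 ± 0.12), and Tpx2, the activator of Aurora A (-0.43 ± 0.09). Aurka and Aurkb with the Aurora inhibitors MK5108 and SNS314 did not pass the threshold, at log2 fold changes of 0.03 to 0.37.

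Map2k1 (MEK1, chr9:64185769-64253605) had 2508, 2905 and 3234 reads in DMSOs1 and 1995, 4672 and 2699 in DMSOs2. Pimasertib gave 1755, 2012 and 1799 (-0.65 ± 0.22, adjusted p = 0.0290), of which the second lies within the DMSO range. The value without DMSOs2 replicate 2, the highest DMSO sample, was -0.51 (adjusted p = 0.121), and the call also ended without DMSOs1 replicate 3 (0.0524), without any 1 Pimasertib sample (0.0685 to 0.0936) and with the length index as a covariate (0.0678). In all the call ended in 15 of 26 alternatives, among them either DMSO set alone as reference and only the groups compared. With mitochondrial share and replicate number in the fit the log2 fold change was -0.27 (adjusted p = 0.504). The share was 3.24 to 4.29% with Pimasertib and 0.76 to 1.94% in DMSO. As these did not overlap, share and CKI cannot be told apart here. The neutrophil marker genes summed to 489 to 561 with Pimasertib, above the 113 to 420 of DMSO, and their part in its values was not tested. Refametinib gave 1751, 2167 and 2353 (-0.48 ± 0.22, adjusted p = 0.166; 0.0466 with replicate number as a blocking term) and Selumetinib 1886, 3078 and 3197 (-0.13 ± 0.22, adjusted p = 0.950). The difference of the 3 together from the other CKIs did not pass the threshold (-0.10 ± 0.11, adjusted p = 0.591). Map2k1 was below DMSO on average with 56 of 58 CKIs. Map2k2, Braf and Mapk3 with their own inhibitors ran from -0.19 to 0.02 and none passed the threshold.

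Pdgfrb, the receptor for PDGF-BB, gave the largest uncalled change with an own inhibitor. Midostaurin gave 47, 51 and 37 reads, all above the 9 to 33 of DMSO and the highest mean of the 58 CKIs (1.22 ± 0.39, adjusted p = 0.0509; 0.0354 with replicate number as a blocking term). Telatinib gave 22, 19 and 11 and Vatalanib 37, 24 and 19. The 3 together were above the 55 other CKIs by 0.77 ± 0.19 (adjusted p = 0.0087; 1.76% of genes called), but not without replicate 1 (0.55, adjusted p = 0.618) or replicate 2 (0.73, adjusted p = 0.175) of every group. The 5 fibroblast genes summed to 28 to 124 with Midostaurin and 19 to 147 with DMSO.

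No receptor, cytoplasmic tyrosine, Janus, AKT, p38, cyclin-dependent or IKK-family kinase gene passed the threshold with an own inhibitor before any block, covariate or rescaling. With replicate number as a blocking term Akt2 passed with MK2206 (0.0266) and Pdgfrb with Midostaurin. Akt2 with MK2206 also passed with median-of-ratios scaling (0.039), but not with the length index (0.167). Pdgfrb with Midostaurin also passed with the length index (0.0202) and with mitochondrial share and replicate number (0.0301), but not with median-of-ratios scaling (0.089). The 8 pairs of Kdr lay between -0.28 with OSI930 and 0.27 with Vandetanib, the 4 of Met between 0.11 with MK2461 and 0.87 with AMG208, and Kit had its lowest value of the 58 with OSI930 (19, 10 and 2 reads; -0.74 ± 0.39, adjusted p = 0.320). The 12 pairs of Janus kinases lay between -0.33 and 0.30, the 8 of p38 kinases between -0.36 and 0.29, the 3 of cyclin-dependent kinases with BMS387032 between 0.10 and 0.24, and the 3 of the IKK family between -0.20 and 0.09. With SEs of 0.09 to 0.39, these do not show that the genes were unaffected.

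**Figure D3:**
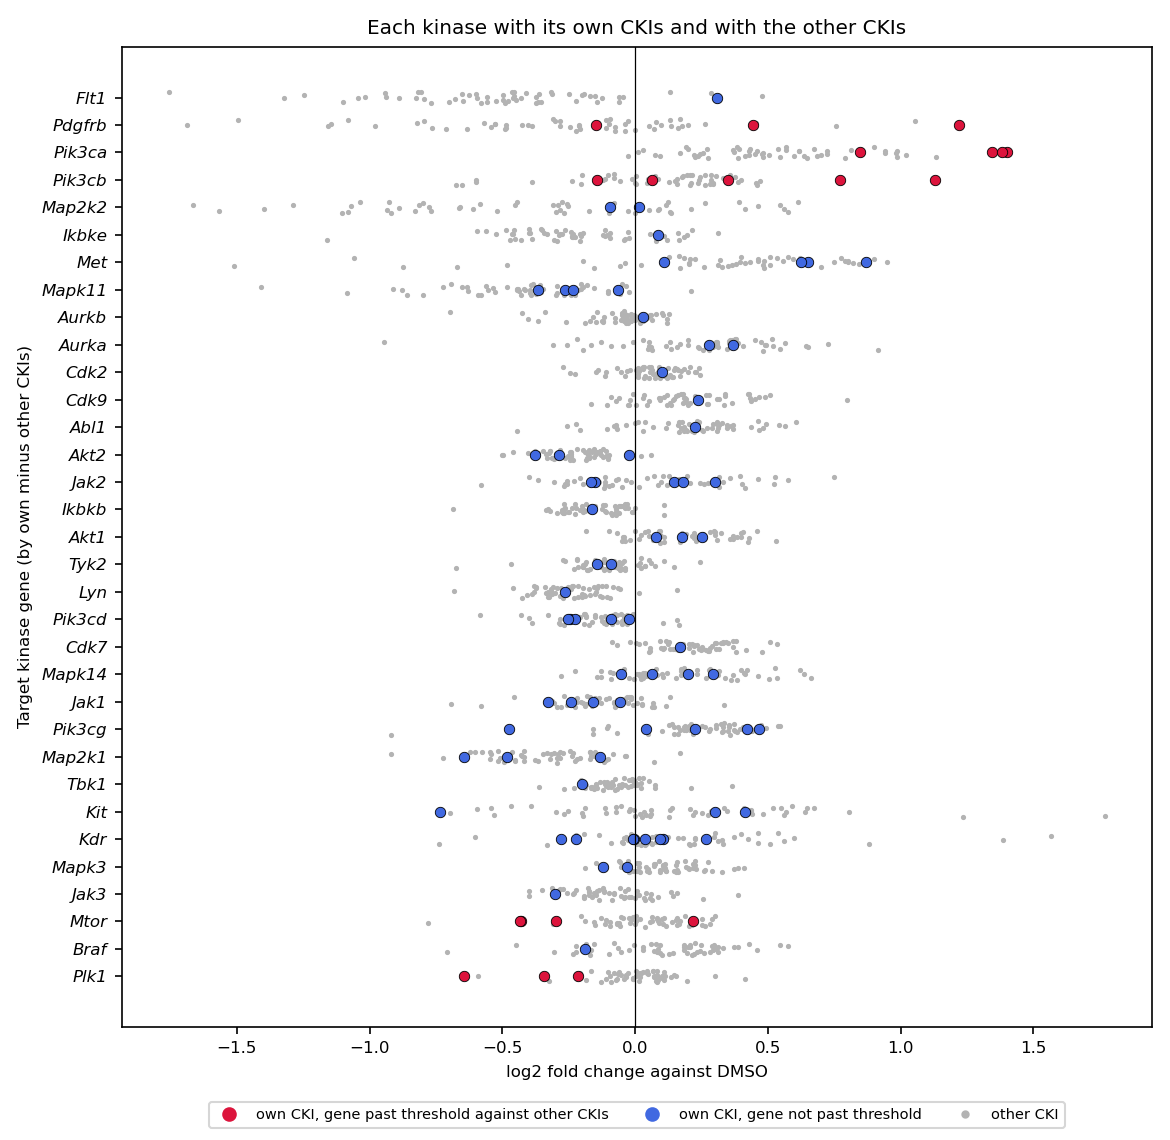
Log2 fold change against DMSO of 33 kinases with each of 58 CKIs; large points are a kinase's own CKIs (red where these together differed from all other CKIs, blue where not) and small grey points the other CKIs. For Pik3ca 3 of 4 own CKIs, at 1.34 to 1.40, lie right of every grey point and Apitolisib, at 0.85, among them; the 3 own CKIs of Plk1, at -0.64 to -0.22, are among its 5 lowest.

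Over all CKIs, 101 of 1972 kinase comparisons passed the threshold, or 5.12% beside 4.18% for all genes, 39 higher and 62 lower (2.52% and 1.65% of all gene comparisons were higher and lower). The count turned on the libraries: it was 59 without DMSOs2 replicate 2, 47 and 52 without the first and second replicate of every CKI, and 29 without replicate 2 of every group. With median-of-ratios scaling, which moved the median log2 fold change of all genes by up to 0.20, 107 passed, 24 higher and 83 lower, and the share of higher calls among all genes went from 60.4% to 40.8%. Of the 101 calls, 56 stayed past the threshold with the length index as a covariate and 45 did not; 70 stayed with mitochondrial share and replicate number in the fit and 31 did not. The 101 calls came from 18 CKIs, 88 of them from 10, and involved 30 kinases. Abl1, Jak3, Mapk3 and Cdk2 were called with none.

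Afatinib had the most kinases called, 15 of 34 (44.1%, where 21.9% of all genes were called), 13 lower, beside 12.8% of all genes, and 2 higher. Among the lower were Pik3cd (811, 559 and 1046 reads; -0.58 ± 0.11), Pik3cg (340, 266 and 703; -0.92 ± 0.19), Mtor (70, 102 and 160; -0.78 ± 0.21), Jak1 (1267, 948 and 1912; -0.69 ± 0.16) and Tyk2, and the 2 higher were Aurka and Cdk7. For these 4 genes with reads the last sample lay within the DMSO range and the lower samples were the first or the second. The length index of the Afatinib libraries was the lowest of the 58 CKIs, at -0.44 on average (-0.68 to -0.10), and with it as a covariate 0 of the 34 kinases and 4.31% of all genes passed.

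**Figure D4:**
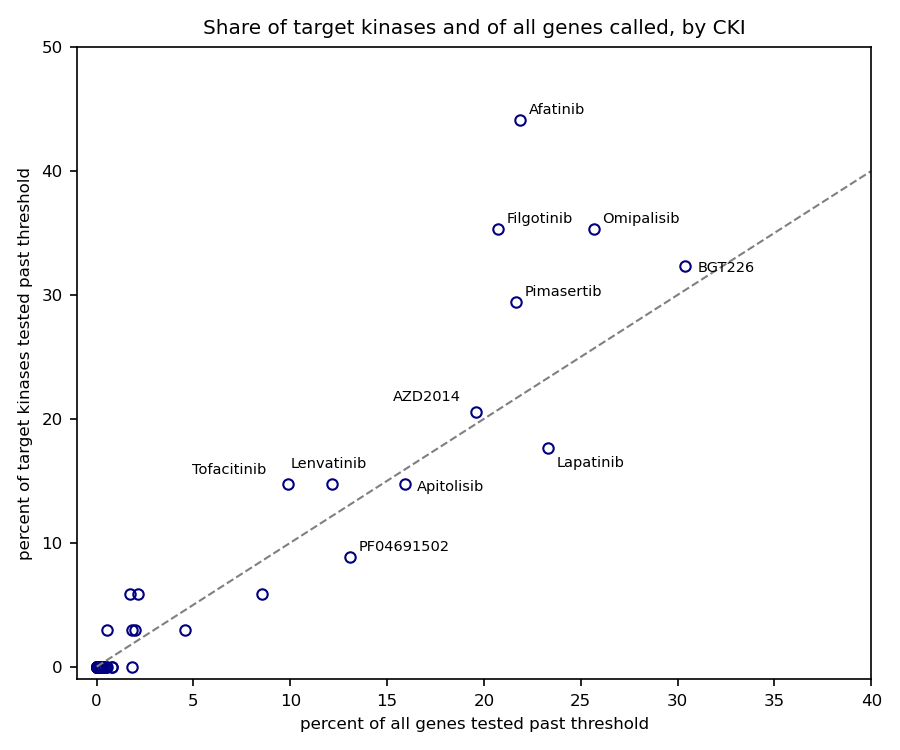
Percent of the 34 tested kinases (vertical axis) and of all 12714 genes (horizontal axis) past the threshold for each of 58 CKIs, with the dashed line marking equal shares. Afatinib (44.1% against 21.9%) lies farthest above the line, BGT226 (32.4% against 30.4%) close to it and Lapatinib (17.6% against 23.3%) below it.

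Filgotinib, designated against Jak1, and Omipalisib each had 12 kinases called (20.7% and 25.7% of all genes). With Filgotinib 11 were lower, beside 14.6% of all genes, among them all 3 IKK-family genes: Ikbke (340, 360 and 299 reads against 539 to 1080; -1.16 ± 0.25), Ikbkb (500, 559 and 654 against 791 to 1042; -0.68 ± 0.13) and Tbk1 (912, 890 and 1036 against 1057 to 1312; -0.36 ± 0.09). No Filgotinib sample overlapped with DMSO for these 3, which were picked here after their values were seen. Its length index was -0.19 on average, and 9 kinases passed the threshold with the index as a covariate. They did not include Kdr (adjusted p = 0.405), Lyn (0.213), Map2k1 (0.123), Map2k2 (0.152) and Aurkb (0.150). Some of the 9 were therefore not among the 12 called without it. BGT226 (11 called, 30.4% of all genes) showed 9 higher and 2 lower. With median-of-ratios scaling these counts were 5 and 6, and with the length index as a covariate 8 and 6. Both settings include kinases outside the 11, and with the length index Met (adjusted p = 0.17) and Braf (0.0672) ended. Pimasertib (10 called, 21.7%) showed 2 higher and 8 lower, with 2 called once mitochondrial share and replicate number were in the fit. The mitochondrial share of its samples did not overlap with that of DMSO. AZD2014 had 7 (19.6%), Lapatinib 6 (23.3%) and Apitolisib, Lenvatinib and Tofacitinib 5 each (15.9%, 12.2% and 9.88%). The length index was -0.26 on average in the AZD2014 libraries. With it as a covariate 4 kinases passed with AZD2014, of which only Map2k1 (adjusted p = 0.0452) and Map2k2 (0.0116) were among the 7. Apitolisib and Lenvatinib had 0 called with mitochondrial share and replicate number in the fit, as did Tofacitinib. Lapatinib had 1 called with the length index as a covariate, and its neutrophil marker genes summed to 500 to 558. In all, 40 CKIs had none called in the first place.

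BGT226 and Omipalisib, both directed at PI3K and both compared with the same DMSO samples, each raised Kdr and Kit, which are named here after their values were seen. Kdr went from 46 to 356 reads in DMSO to 466, 373 and 514 with BGT226 (1.57 ± 0.27, adjusted p = 1.25e-06) and 439, 354 and 393 with Omipalisib, the second of these just inside the DMSO range (1.38 ± 0.27, adjusted p = 3.06e-05). Kit went from 7 to 22 reads to 53, 39 and 55 with BGT226 (1.77 ± 0.39, adjusted p = 0.00012) and 39, 31 and 30 with Omipalisib (1.23 ± 0.39, adjusted p = 0.0114). Flt1 fell with BGT226 to 3, 12 and 11 reads from 21 to 64 (-1.76 ± 0.39, adjusted p = 0.000161). The 5 endothelial genes summed to 142 to 195 with BGT226 and 118 to 154 with Omipalisib, above the 34 to 113 of DMSO, while the mast cell genes summed to 0. The dendritic cell marker genes summed to 142 to 174 with BGT226 and 172 to 292 with Omipalisib, against 81 to 146 in DMSO; the part of other cells in these values was not tested. The length index was 0.40 on average with BGT226, the highest of the 58 CKIs, and all 5 of these calls held with it as a covariate.

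**Figure D5:**
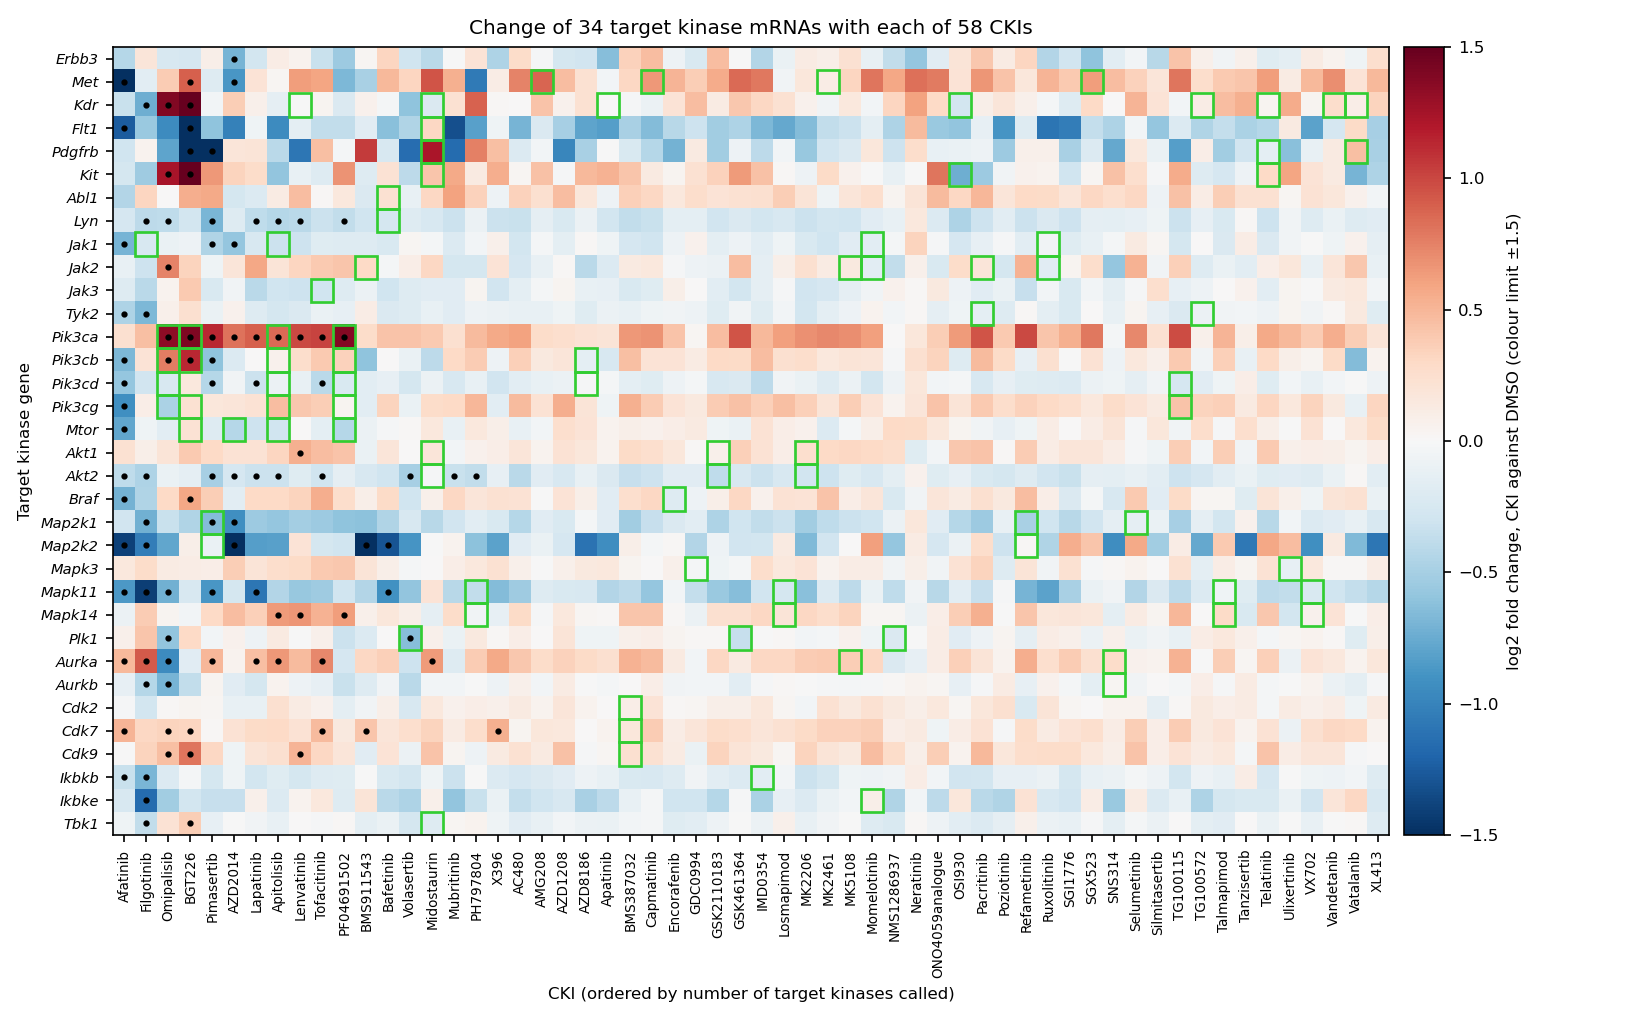
Log2 fold change against DMSO (colour, limited to ±1.5) of 34 kinase genes with 58 CKIs, ordered by the number of kinases called; black dots mark an adjusted p under 0.05 and green frames a kinase's own CKI. Dots crowd into the leftmost columns, from 15 with Afatinib, few of them lie in green frames (8 of 90), and the row of Pik3ca is red in 57 of 58 columns.

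The 10 kinases called most often were Akt2, Pik3ca, Aurka, Lyn, Cdk7, Mapk11, Map2k2, Pik3cb, Pik3cd and Cdk9, the last by alphabet among several with 3 calls. Akt2, the AKT isoform best known in insulin signaling, fell with 10 CKIs and rose with none. It had 892 to 1247 reads in DMSO and 705, 740 and 706 with Volasertib, the largest fall (-0.50 ± 0.09, adjusted p = 0.00012). With its own inhibitors GSK2110183 (750, 886 and 721 reads) and MK2206 (899, 751 and 852) it did not pass the threshold (adjusted p = 0.194 and 0.0635), although the 3 GSK2110183 samples lay below all DMSO samples. Lyn fell with 7 CKIs, most with Pimasertib (2427, 2896 and 2363 reads against 3405 to 5425; -0.68 ± 0.13, adjusted p = 0.000116), and was at 3216, 3826 and 3213 with its own CKI Bafetinib (adjusted p = 0.227). Mapk11 fell with 6, most with Filgotinib (18, 16 and 23 reads against 36 to 70; -1.41 ± 0.26, adjusted p = 9.30e-06). Like Pik3ca in the other direction, these were on 1 side of DMSO with nearly all CKIs, called or not. Akt2 and Lyn were below it with 56 of 58 and Mapk11 with 57 of 58. Akt2, Lyn and Mapk11 each had their highest DMSO value in DMSOs2 replicate 2 (1247, 5425 and 70 reads). Without that library 59 kinase comparisons passed in all, against 101. With the length index as a covariate 6 of the 10 calls of Akt2, 3 of the 7 of Lyn and 4 of the 6 of Mapk11 stayed, and with mitochondrial share and replicate number 7, 3 and 5 did.

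Aurka moved both ways. It had 200 to 379 reads in DMSO, rose to 524, 611 and 525 with Filgotinib (0.91 ± 0.17, adjusted p = 2.09e-05) and fell to 178, 154 and 126 with Omipalisib (-0.95 ± 0.17, adjusted p = 5.97e-06). No sample of either overlapped with DMSO. It rose with 6 further CKIs by 0.45 to 0.73. Of its 8 calls 4 stayed with the length index as a covariate and 4 with mitochondrial share and replicate number, those with Filgotinib and Omipalisib under both. Omipalisib also lowered Plk1 (421, 498 and 422 reads; -0.59 ± 0.16) and Aurkb (506, 560 and 518 against 618 to 1103; -0.70 ± 0.16), so all 3 mitotic kinase genes fell with it, where 8.16% of all genes were lower. Of the 14 tested mitotic partners 4 fell, Incenp, Cdc20, Tpx2 and Birc5, and 1, the proliferation marker Mki67, rose.

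The transcriptional kinase genes rose where they were called. Cdk7, of the TFIIH kinase module, rose with 6 CKIs, most with X396 (215, 183 and 162 reads against 111 to 139, log2 fold change 0.53 ± 0.13, adjusted p = 0.0160). That call ended in 8 of 26 alternatives, among them without DMSOs2 replicate 3, without X396 replicate 1 or 2 and against DMSOs1 alone. Cdk9, the kinase of P-TEFb, rose with 3, most with BGT226 (206, 194 and 184 against 90 to 134; 0.80 ± 0.15, adjusted p = 1.04e-05). Map2k2 (MEK2) fell with 5, most with BMS911543 (72, 163 and 105 reads against 192 to 680; -1.67 ± 0.36, adjusted p = 0.000254; not past the threshold without BMS911543 replicate 1). Its values spread widely, with an SD of 179 around a mean of 376 in DMSO. Pik3cd fell with 4 CKIs (log2 fold changes of -0.58 to -0.33), and none of these had all samples below DMSO. Pik3cb, besides its rises, fell with Afatinib and Pimasertib, and both of these calls ended with the length index as a covariate. Of the calls in the preceding sentences that index left 5 of 6 for Cdk7, 3 of 3 for Cdk9, 2 of 5 for Map2k2 and 2 of 4 for Pik3cd. In the same order, median-of-ratios scaling left 3, 1, 5 and 4, and mitochondrial share and replicate number left 5, 2, 5 and 1.

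The remaining kinases were called with 1 to 3 CKIs each. Mapk14 (p38 alpha) rose with 3, Apitolisib (357, 295 and 297 reads), Lenvatinib (331, 312 and 320) and PF04691502 (388, 287 and 272), against 146 to 281 in DMSO. Jak2 rose with Omipalisib (566, 565 and 547 against 186 to 517; 0.75 ± 0.27) and Akt1 with Lenvatinib (428, 309 and 344 against 216 to 278; 0.53 ± 0.17). Braf rose with BGT226 and fell with Afatinib. Tbk1 rose with BGT226 (1524, 1592 and 1578 reads; 0.36 ± 0.09), the reverse of its fall with Filgotinib. Jak1 fell with Afatinib, AZD2014 and Pimasertib, and Tyk2 with Filgotinib (393, 445 and 394 against 484 to 897; -0.67 ± 0.15) and Afatinib. Map2k1 fell with AZD2014 (1194, 1714 and 1764; -0.92 ± 0.22) and Filgotinib besides Pimasertib, and its fall with AZD2014 was the largest of the 58. Pdgfrb fell to 4, 2 and 14 reads with BGT226 and to 7, 5 and 6 with Pimasertib (-1.69 ± 0.39 and -1.49 ± 0.39), Met fell with Afatinib (8, 13 and 13 reads; -1.51 ± 0.33) and AZD2014 and rose with BGT226, and Erbb3 fell with AZD2014 alone. With the length index as a covariate 1 of the 3 calls of Mapk14 and of Map2k1, 1 of the 2 of Tyk2 and none of those of Jak1, Met, Braf and Erbb3 stayed. With mitochondrial share and replicate number none of the calls of Mapk14 and Akt1 stayed, and those of Map2k1, Pdgfrb and Jak1 with Pimasertib ended.

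The partners of these kinases, 129 genes in 10 lists of which 114 were tested, were called in 344 of 6612 comparisons (5.20%, beside 4.18% for all genes), 174 higher and 170 lower. In 8 of the lists between 3.69% and 5.17% of comparisons were called, near that background. In the JAK-coupled receptors the share was 12.1%, 60 lower and 10 higher over 10 genes. Il4ra, the interleukin-4 receptor, fell with 12 CKIs (most with PH797804, -1.86) and rose with Midostaurin (0.89), Il10ra fell with 12 (most with Filgotinib, -0.99), and Ifnar1, a chain of the type I interferon receptor, with 10 (most with Pimasertib, -0.82). In the IKK partners 7.39% were called. Counts of these lists under the covariates or median-of-ratios scaling are not given here, and the background was not matched for expression level. Azi2, an adaptor of TBK1, fell with 10 CKIs and Chuk, the other catalytic IKK subunit, with 6, both most with AZD2014 (-1.69 and -1.73), and Map3k14, the kinase upstream of the noncanonical pathway, rose with 4.

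With the 2 CKIs that raised both Pik3ca and Pik3cb the partners of PI3K and mTOR were counted; the genes named here for single CKIs were chosen after their values were seen. With BGT226 4 of 10 PI3K partners and 5 of 10 mTOR and AKT partners rose and none fell, where 24.1% of all genes were higher. The length index was also highest with BGT226; with it as a covariate these counts were 3, with 1 lower, and 5, beside 31.8% of all genes higher, and with median-of-ratios scaling 3 higher, and 5 higher and 1 lower, beside 15.7%. With Omipalisib 2 of 10 PI3K partners, near the background of 17.5% of all genes higher, and 5 of 10 mTOR and AKT partners rose; the latter were 5 with the length index and 4 with median-of-ratios scaling. Mlst8, a subunit of both mTOR complexes, had 293, 243 and 260 reads with BGT226 and 166, 192 and 161 with Omipalisib against 78 to 91 in DMSO (1.64 ± 0.20 and 1.02 ± 0.20). Rptor, the scaffold of mTOR complex 1, had 673, 729 and 709 and 460, 501 and 443 against 192 to 314 (1.42 ± 0.17 and 0.83 ± 0.17). Rictor of mTOR complex 2 and Tsc1, a brake on mTOR complex 1, rose with both as well. Pik3r1, the regulatory subunit p85 alpha, had 1744, 1946 and 1844 and 1798, 1836 and 1728 against 746 to 1068 (0.94 ± 0.12 and 0.89 ± 0.12). With PF04691502, which raised Pik3ca to a like mean and called 13.1% of all genes, 0 of these 20 partners passed the threshold, and with Apitolisib 1 did, Pik3r5, which was lower; the difference between the CKIs was not tested, since concentrations differed. With AZD2014 4 of 10 PI3K partners fell, beside 13.5% of all genes, among them Pik3r3 and Pik3r4, and Tsc1 rose while Mapkap1 fell.

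Of the ligands of the receptor kinases, 9 of 17 were tested, and 4.60% of 522 comparisons were called, near the 4.18% of all genes, 20 higher and 4 lower. Hbegf, a ligand of Egfr, had 3 to 17 reads in DMSO, 63, 68 and 71 with BGT226 (2.77 ± 0.43, adjusted p = 7.46e-08) and 1, 1 and 5 with Pimasertib (-1.79 ± 0.43, adjusted p = 0.0032). Pgf, a ligand of Flt1, rose with 8 CKIs, most with BGT226 (144, 102 and 43 reads against 5 to 30; 2.70 ± 0.52). Pdgfa, a PDGF chain, rose with 2 and fell with 3. In the remaining lists Ccnt1, the cyclin of Cdk9, rose with 7 CKIs, most with BGT226 (0.79), Cdkn1b, the inhibitor of cyclin-dependent kinases p27, rose with 5, most with AZD2014 (1.21), and Ccna2 (cyclin A2) fell with 4. Map3k8, the kinase that activates MEK after LPS, fell with 5 CKIs, most with IMD0354 (-0.69). Of the 7 tested partners of the ERK cascade, Map3k8 alone was called with Pimasertib. Map2k3, upstream of p38, fell with 4, Tab1 rose with 4 and Mapkapk3 rose with 3 and fell with 2. Among mitotic partners Ccnb1 and Cdc25c rose with 5 each and Incenp fell with 5. Of the other annotated targets Clk1 rose with 11 CKIs, Ripk2 fell with 6, and Pim3 rose with 4 and fell with 3. Pik3r4 fell with 6 and Pdpk1 rose with 2 and fell with 3, while Lamtor3 rose with 4 and fell with 1.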

How the data were processed

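RNA-seq libraries (SMART-seq2, polyA) of 180 samples were used: 58 CKIs with 3 samples each and 6 DMSO samples. The authors aligned single-end reads to mm10 with TopHat2 2.1.1, removed blacklisted regions with bedtools 2.29.2, counted reads per gene with R/Bioconductor packages, scaled libraries on invariant genes and rounded the result, so each deposited value is treated as a normalized score and not as a raw count. Depth as raw reads is not given in the sources used here. Because the scores are normalized, a count model was not used. Genes with a mean of at least 10 were tested on log2(value + 1) with limma 3.58.1 in R 4.3.3 (moderated test with variance trend, all 180 samples in 1 fit, two-sided), with Benjamini-Hochberg adjustment within each CKI and a threshold of 0.05. Fold changes are on that scale and understate the change of low genes. Own CKIs were also compared with all other CKIs without DMSO. Genes named are every kinase of the set, all own pairs past the threshold, the 10 kinases called most often with their largest rise and fall among CKIs whose samples all lie beyond DMSO, and up to 3 genes per partner list; others are said to be chosen after their values were seen. Some partner and marker genes are not reported here by name. The members and lists were chosen with earlier results of these data known. Same replicate numbers correlated above 0.1 in all 3 pairs in 34 of 58 CKIs (-0.523 to 0.726) and were not treated as pairing. Promoters come from RefSeq (GRCm38.p6), exon overlaps from GENCODE. Alternatives in pseudocount, filter, scaling, reference, block, adjustment and left-out libraries were tried, and 2 covariates (length index, mitochondrial share) were added after seeing the data. Mitochondrial share was fitted only together with the replicate block. Python 3.11.15, NumPy 2.4.6, pandas 2.3.3 and matplotlib 3.10.9 were used.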

Additional observations from a re-analysis of the deposited data

Results flagged for a closer look

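Of the 31 kinases with at least 10 normalized reads in every DMSO sample, 2 had 1 DMSO sample far from the other 5 by Dixon's criterion at the 95% level, which chance alone meets in about 1 in 20 groups. Flt1 had 64 reads in DMSOs2 replicate 2 and 21 to 26 in the others. Pik3cg had 321 reads in DMSOs1 replicate 3 and 796 to 973 in the others; that library also had the lowest length index of the 6, at -0.40, and their relation was not tested.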

How the results depend on the processing

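Of the 101 called kinase comparisons 1 changed sign in an alternative, Tyk2 with Afatinib, at 0.01 without replicate 2 of every group. The 101 kinase calls (39 higher, 62 lower) became 49 (20 and 29) against DMSOs1 alone, 27 (11 and 16) with only the groups compared in each fit, and 23 (10 and 13) with a log2 fold change of at least 1; against DMSOs2 alone 19 were higher, with median-of-ratios scaling 24 were higher, and with the length index as a covariate 41 were lower (88 calls in all, of which 56 were among the 101). Leaving out libraries gave 29 to 141 calls, 17 to 56 higher and 12 to 85 lower. The same replicate numbers correlated above 0.1 in all pairs in 34 of 58 CKIs and not in the others, so the block was not used; with the replicate block, 184 calls (71 higher, 113 lower), 13 own-inhibitor calls, 606 partner calls and 56630 calls over all genes passed, against 101, 8, 344 and 30807. The 5 own-inhibitor calls it added were Akt2 with MK2206, Map2k1 with Refametinib, Pdgfrb with Midostaurin and Pik3cg with Apitolisib and Omipalisib, 3 of them (Refametinib, Midostaurin and Apitolisib) for CKIs whose pairs all correlated above 0.1. The 8 own-inhibitor calls were 5 against DMSOs1 or DMSOs2 alone, 4 with only the groups compared or with a log2 fold change of at least 1, 1 for intended targets alone, and 4 to 10 with libraries left out. The 5 calls of own against other CKIs were 0 with a log2 fold change of at least 1 and 3 to 4 without each replicate. Partner calls were 185 against DMSOs1, 220 against DMSOs2, 89 with a log2 fold change of at least 1, 149 with only the groups compared, and 126 to 490 with libraries left out. Calls over all genes were 14964, 17844, 8495 and 12293 in the same order, 20454 when adjusted over all CKIs together, and 8557 to 44904 with libraries left out. The DMSO sets differed at 0 genes with the block and at 153 with no filter. The number of expressed kinases was 31 to 32 without each DMSO sample. Receptor genes with few reads could not be tested, and 3 samples per CKI limit what a single comparison can show; the cause of the shifts was not tested.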
